A study of Mus musculus with 7 samples.

Results

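Limb buds carrying the inversion Inv4 were compared with wild-type (WT) limb buds by capture Hi-C, which counts how often pairs of loci are ligated to each other in fixed nuclei. The comparison used the 2 libraries titled Inv4 and WT, of 7 in the whole series, chosen by their titles. The series examined CRISPR/Cas9 inversions at the Epha4 locus of mouse chromosome 1, and a library of 1 further inversion, Inv3, is set beside some values. Forelimb and hindlimb buds came from mouse embryos at stage E11.5, and each library held the limb buds of 10 embryos, per the design text. Both titles also read Distal. The genotype field reads WT for the control and no more than mutant for Inv4, and the cell type field reads G4 ESC for both although the source is limb bud. Inv4 was described from its title and its contact map, and whether the embryos carried 1 or both copies of the inversion is not given in the labels. The name of the deposited Inv4 map carries the mark hom, which the labels do not explain. With 1 library a side there was no test, and each difference below is one between 2 libraries without a replicate check.

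Chromosomes are folded into domains within which loci meet more often than across the border between them. CTCF, a DNA-binding protein, and the cohesin ring, which extrudes DNA loops until it is halted, are found at many borders and at the anchors of stripes, lines of raised contact from 1 locus to a whole stretch. Epha4 encodes a receptor tyrosine kinase for ephrins that acts in axon guidance and limb innervation. It lies in a large domain with few other genes that holds limb enhancers, next to a gene-dense stretch with genes such as Wnt6 and Ihh.

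The maps covered 71 to 81 Mb in build mm9 and gave 1 balanced value per pair of bins, each 10 kb wide. The WT map held 5155259 recovered read pairs. The deposited Inv4 map was a library from which 0.334 times the WT map had been subtracted. This removed 49.1% of the summed signal and left 28.8% of listed bin pairs below 0. Outside the inverted segment the Inv4 library held 2851920 read pairs before the subtraction, against 4320682 in the same area of WT. Away from the segment the libraries also differed. The share of contacts that stayed within each stretch fell by 1.59 percentage points in the centromeric flank (71000 to 73600 kb) and by 1.71 points in the telomeric flank (78500 to 81000 kb). It fell by 6.54 points in the stretch beyond the Epha4 domain (77510 to 78500 kb).

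The inversion ran from 74790 to 75900 kb, with each end known to 1 bin of 10 kb. The Inv4 map was written in the order of the inverted chromosome, so positions within the segment were turned back to WT order wherever the same sequence is compared. Read backwards, the bin factors of the subtracted part correlated with those of WT at 0.785 within the segment, and read forwards at -0.20. The segment held 2 unlike pieces. The larger one (74800 to 75620 kb) belonged to the gene-dense stretch, and is called its gene part below. The smaller one (75620 to 75890 kb) was the end of the Epha4 domain in WT, and is called the moved part. The inversion placed the moved part next to sequence that lies left of the segment, and placed the outer end of the gene part next to the remaining Epha4 domain (75900 to 77510 kb).

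Upstream sequences of 3 genes are shown because their start sites are the points from which the gene contacts below were read. They are those of Epha4, the highest gene in WT, of Prkag3, the highest gene in Inv4, and of Wnt6, the next gene in order, where values fell. Each sequence holds the 250 bases before the start, from the gene's own strand, taken from RefSeq (build GRCm38.p6, whose positions are not those of the mm9 maps). The windows are chr1:77515089-77515338 on the minus strand for Epha4, chr1:74748956-74749205 on the minus strand for Prkag3 and chr1:74771642-74771891 on the plus strand for Wnt6. Capitals mark CCCTC, a short string that is part of the CTCF motif, on either strand.
Epha4: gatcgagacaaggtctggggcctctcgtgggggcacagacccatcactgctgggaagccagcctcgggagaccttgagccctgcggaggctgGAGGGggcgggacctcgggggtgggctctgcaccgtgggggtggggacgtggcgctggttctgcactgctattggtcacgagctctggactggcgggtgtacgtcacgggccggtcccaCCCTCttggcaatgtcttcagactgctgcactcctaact
Prkag3: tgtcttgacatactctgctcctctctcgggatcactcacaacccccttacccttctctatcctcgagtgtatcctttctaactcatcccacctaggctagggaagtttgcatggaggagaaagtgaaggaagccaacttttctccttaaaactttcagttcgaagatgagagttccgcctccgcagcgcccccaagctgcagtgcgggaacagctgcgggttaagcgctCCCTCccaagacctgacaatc
Wnt6: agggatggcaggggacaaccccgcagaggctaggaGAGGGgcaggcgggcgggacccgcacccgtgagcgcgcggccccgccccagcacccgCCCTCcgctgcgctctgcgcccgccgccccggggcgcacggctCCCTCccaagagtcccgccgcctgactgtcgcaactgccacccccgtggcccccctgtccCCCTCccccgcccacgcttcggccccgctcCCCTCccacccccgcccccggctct
The string occurred 2 times upstream of Epha4, 1 time upstream of Prkag3 and 5 times upstream of Wnt6. It occurred in 60.5% of the 32851 mouse promoter windows of the same length, so its presence sets none of the 3 apart. The bases G and C made up 66.0%, 52.4% and 79.6% of the 3 windows. In GRCm38.p6 the starts of Prkag3 and Wnt6 lie 22.9 kb apart.

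A pair of miRNA genes on either side of the breakpoint were listed in the gene tables, and their mature sequences from RefSeq (GRCm38.p6) are shown with the seed, bases 2 to 8, in capitals.
miR-26b-5p: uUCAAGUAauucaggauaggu
miR-26b-3p: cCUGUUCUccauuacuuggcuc
miR-375-5p: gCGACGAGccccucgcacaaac
For Mir375 the sequence source held the 5p form only, so its 3p form is not shown. The 3 seeds shown differ from each other. Mir26b lies within the sequence left of the segment in gene order, and Mir375 lies between Cryba2 and Ccdc108 within the segment.

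The deposited gene tables give 1 scaled contact value per gene, between its start site and an enhancer region whose position the tables do not state. How the authors scaled the tables is not given, so they may not share a scale. In WT the highest values belonged to genes of the Epha4 domain and of the gene-dense end next to it, and all 10 highest genes lay from Des onward in gene order. In Inv4 all 10 highest genes lay between Tns1 and Prkag3, which precede the segment in gene order. The 25 genes from Tns1 to Prkag3 made up 9.43% of the summed values of all 103 genes in WT and 61.2% in Inv4. The sum over all genes was 86.5 in WT and 357.2 in Inv4.

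Over all 103 genes, 54 (52.4%) were over 2-fold above WT in Inv4 and 7 (6.8%) over 2-fold below, on log2 ratios with a pseudocount of 0.5 and negative values set to 0. Centred on the median gene, whose log2 ratio was 1.08, these counts were 24 (23.3%) and 25 (24.3%). A total of 35 genes at the ends of the tables, far from the inversion, show how much values moved elsewhere. Among them the SD of the difference between Inv4 and WT was 0.601 scaled units and the largest difference 1.79, and 7 of the 35 were beyond 2-fold. Their median log2 ratio was 0.17. Their median value was 0.188 in WT and 0.451 in Inv4, both below the pseudocount of 0.5. With a pseudocount of 0.05, 15 of the 35 were over 2-fold above, against 67 of all 103 genes. The ratio of 0.17 thus does not show that the tables share a scale. Of all 103 genes, 41 rose and 5 fell by more than that largest far difference, in units of tables that may not share a scale.

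Among the genes beyond the left breakpoint, all 25 from Tns1 to Prkag3 were higher in Inv4, but so were 83 of all 103 genes. Of the 25, 23 passed 2-fold, or 20 of 25 after centring, against the 52.4% and 23.3% of all genes. The 2 that did not were Slc11a1 and Arpc2, a subunit of the actin-nucleating Arp2/3 complex, at 0.416 in WT and 1.28 in Inv4. The median of the 25 was 0.279 in WT and 4.61 in Inv4. The edge of this group at Prkag3 was read from these same values, so its counts are partly fixed by that choice. Values climbed along the genes toward the breakpoint. Prkag3, an AMPK subunit of skeletal muscle, was at 1.01 in WT and 33.9 in Inv4. Cyp27a1, a mitochondrial sterol hydroxylase, was at 0.633 and 25.2. Ttll4, an enzyme that adds glutamate chains to tubulin, was at 0.447 and 17.5.

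Those 3 genes were followed by a plateau. Rnf25, an E3 ubiquitin ligase, and Stk36, a kinase of motile cilia, share their values and were at 0.480 in WT and 13.6 in Inv4. Zfp142, a zinc finger gene, and Bcs1l, which assembles complex III of the respiratory chain, were both listed at 0 in WT and at 13.7 in Inv4, so no fold is given. Plcd4, a phospholipase C, was at 0.233 and 14.3. Usp37, a deubiquitinase, and Rqcd1, a subunit of the CCR4-NOT deadenylase, were at 0.630 and 11.9. Summed over the 8 genes from Plcd4 to Prkag3, contact was 44.3 times WT, and each of the 8 stood above every gene of the WT table.

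Further from the breakpoint the values were lower and uneven. Vil1, an actin-bundling protein of brush borders, was at 0.159 in WT and 5.63 in Inv4. The Mir26b gene, whose 2 mature forms are printed above, was at 0.273 and 4.20. Ctdsp1, a small phosphatase and the host of Mir26b, was at 0.671 and 4.37. Next to it, Slc11a1, a metal transporter of phagocytes, was at 0.423 and 0.706, a difference smaller than the far-gene SD. Tns1, which links integrins to actin, and Rufy4 shared a value of 4.36 in Inv4 and were listed at 0 in WT. Between Tns1 and Slc11a1 lay the chemokine receptor genes Cxcr2 and Cxcr1, at 2.91 and 2.49 in Inv4, and Gpbar1, a bile acid receptor gene, at 1.13. The order of values along this stretch was thus not a steady decline.

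Values fell from 33.9 to 0.545 between Prkag3 and Wnt6. Gene positions on the mm9 scale were not used here, so this fall in gene order is what places the left breakpoint among the genes. The genes called inside or outside the segment follow from it. The other edge, between Slc4a3 and Gm17751, was not placed on that scale either. Counts of these groups against all genes are therefore partly fixed by the cut. Of the 4 genes from Wnt6 to Fev, 1 (Cdk5r2) was over 2-fold above and 1 (Fev) over 2-fold below, against 52.4% and 6.8% of all genes. After centring none was above and 2 (Wnt10a and Fev) were below, against 23.3% and 24.3% of all genes. Wnt6, a secreted Wnt ligand of limb ectoderm, was at 0.401 in WT and 0.545 in Inv4, and Wnt10a, a ligand of the same family, at 0.697 and 0.766. Both differences were smaller than the far-gene SD. Cdk5r2, an activator of the neuronal kinase Cdk5, was at 0.365 and 1.81. Fev, which specifies serotonergic neurons, was at 1.31 in WT and -0.066 in Inv4. In the Inv3 table the same 4 genes were at 15.4, 16.6, 20.05 and 36.4, in the same order, while Prkag3 was at 10.5 and Cyp27a1 at 6.15. The tables of Inv3 and Inv4 may not share a scale either and are set side by side without a test.

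**Figure D1:**
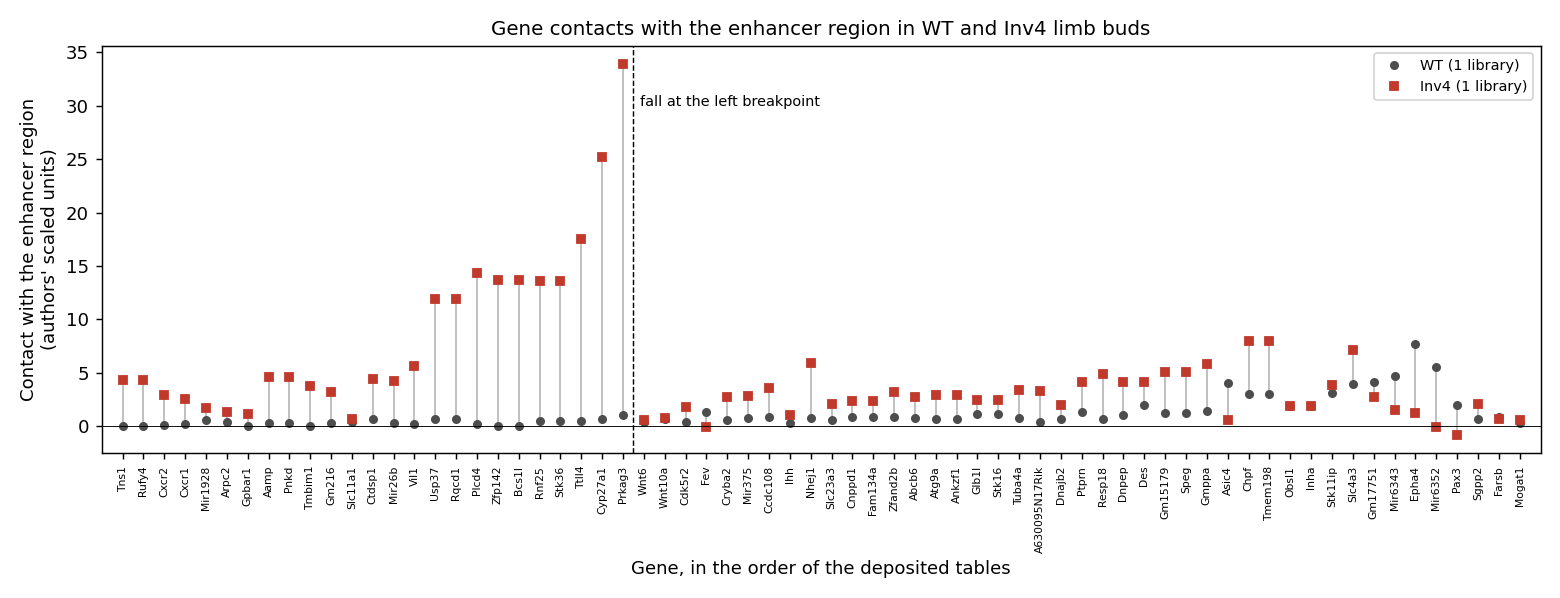
Contact with the enhancer region, in the authors' scaled units, for the genes from Tns1 to Mogat1 in gene order, with WT as grey circles and Inv4 as red squares (1 library each). In Inv4 values climb to 33.9 at Prkag3 and are at 0.545 at the next gene, Wnt6, across the dashed line. Epha4 is the highest WT point at 7.68.

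Genes inside the segment were mostly higher in Inv4 on the authors' scale (33 of 35), as were 83 of all 103 genes. Few genes inside the segment passed 2-fold after centring. Of the 35 genes from Wnt6 to Slc4a3, 24 were over 2-fold above WT and 2 below (Fev and Asic4), against 52.4% and 6.8% of all genes. After centring 3 were above (Nhej1, A630095N17Rik and Resp18) and 5 below (Wnt10a, Fev, Asic4, Obsl1 and Inha). The shares of all genes were then 23.3% and 24.3%, so these counts rest on the scale of the tables. The 6 genes from Cryba2 to Slc23a3 all passed 2-fold, with 1 of 6, Nhej1, left after centring, against 52.4% and 23.3% of all genes. Cryba2, a lens crystallin gene, was at 0.587 in WT and 2.76 in Inv4. Mir375, whose 5p form is printed above, was at 0.784 and 2.77. Ihh, a hedgehog ligand of growing cartilage, was at 0.260 and 1.03. Nhej1, a factor of DNA end joining, reached 5.90 from 0.709, the highest of the 6. Slc23a3 was at 0.591 and 2.10.

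Of the 13 genes from Cnppd1 to Resp18, 11 were over 2-fold above, against 52.4% of all genes, and 2 after centring (A630095N17Rik and Resp18), against 23.3%. The 13 lay between 2.01 and 4.86 in Inv4. Ptprn, a protein of neuroendocrine secretory vesicles, was at 1.35 and 4.16, and Resp18, another gene of neuroendocrine cells, at 0.682 and 4.86. Of the 12 genes from Dnpep to Slc4a3, which are the nearest to the moved part by gene order, 6 were above and 1 below. The shares of all genes were 52.4% and 6.8%. After centring none of the 12 was above and 3 (Asic4, Obsl1 and Inha) were below, against 23.3% and 24.3% of all genes. Des, which encodes the muscle filament desmin, was at 1.93 and 4.16, and Speg, a kinase of striated muscle, at 1.18 and 5.02. Obsl1, a cytoskeletal adaptor, was at 1.87 in WT and 1.88 in Inv4. Slc4a3, an anion exchanger, was at 3.91 and 7.13.

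The 1 gene of these 12 below WT was Asic4, a gene of the acid-sensing ion channel family, named here after its values were seen. It was at 4.08 in WT and 0.603 in Inv4, a log2 ratio of -2.05. Its neighbours Gmppa and Chpf were above WT, at 5.86 from 1.37 and 7.94 from 2.98. In Inv3 Asic4 was at 4.37, close to its WT value.

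Genes of the Epha4 side were lower in Inv4. Of the 8 genes from Gm17751 to Mogat1, 4 were over 2-fold below WT (Epha4, Mir6352, Mir6343 and Pax3), against 6.8% of all genes. A single one was above (Sgpp2), against 52.4%. After centring 6 of the 8 were below and none above, against 24.3% and 23.3% of all genes. Epha4 was at 7.68 in WT and 1.25 in Inv4, a log2 ratio of -2.22, and went from rank 1 to rank 58 of 103. Mir6352, the second highest value in WT at 5.55, was at -0.117 in Inv4. Mir6343 was at 4.65 and 1.49, and Gm17751 at 4.15 and 2.75. Pax3, which acts in precursors of muscle and neural crest, was at 1.98 in WT and -0.808 in Inv4, the lowest value of that table. The origin of negative values in the gene table was not tested, and they were set to 0 before any ratio.

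The 3 genes after Pax3 were below 1 in WT. Sgpp2, a sphingosine phosphate phosphatase, was at 0.667 and 2.07, a log2 ratio of 1.14 that fell to 0.057 after centring. Farsb, a subunit of a tRNA synthetase, was at 0.853 and 0.629, and Mogat1, an acyltransferase of fat synthesis, at 0.304 and 0.579. The remaining gene over 2-fold below WT was Fam124b, among the far genes, at 0.542 and -0.134.

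The maps were then examined at the ends of the segment. In squares of 100 kb across each join, the contact that the same sequences have in WT was exceeded 48.4 ± 4.07 times at the new left join (± counting standard error), and 19.7 ± 1.52 times at the new right join. Across the former left join 4.59% ± 2.93 of the WT contact was left, and across the former right join 5.52% ± 2.28. These low values rest on the subtraction: with the WT share added back, contact across the former joins was 0.540 (left) and 0.506 (right) times WT. The new joins were then 25.1 (left) and 10.5 (right) times WT. In squares of 200 kb the new joins were 31.2 and 9.96 times WT, and in squares of 50 kb the new right join was 33.3 times WT. Pairs across the new joins are also closer on the inverted chromosome. Divided by the mean contact at the same distance in the same map (observed over expected), the new left join was at 1.24 in Inv4, near the mean of 1, and the new right join at 0.505. The same sequences at their WT distance were at 0.245 and 0.270. The new right join thus held more contact than in WT and less than average neighbours do.

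**Figure D2:**
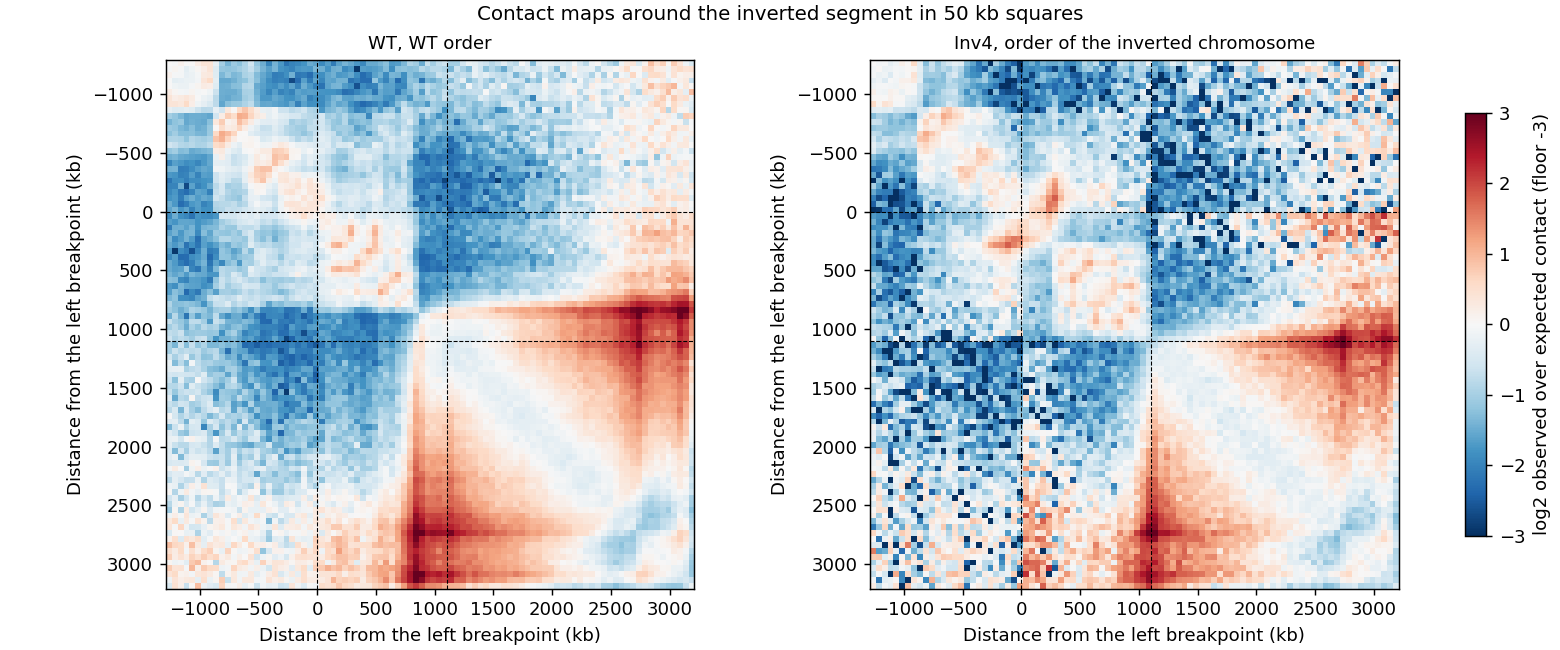
Log2 observed over expected contact in 50 kb squares for WT in WT order and Inv4 in the order of the inverted chromosome, against distance from the left breakpoint in kb, with dashed lines at the breakpoints. The block of raised contact of the Epha4 domain starts well inside the segment in WT and near the right breakpoint in Inv4, and a patch of raised contact crosses the left breakpoint in Inv4 only of these 2 maps.

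The moved part had less contact with its former domain in Inv4, by an amount that depends on the subtraction. With the remaining Epha4 domain it had 32.96% ± 0.107 of all its contacts in WT and 5.84% ± 0.220 in Inv4, which is 17.7% of the WT share. It was 19.1% with the subtracted WT share added back, which is 0.579 times WT, 8.22% with a subtracted share 10% smaller and 2.96% with one 10% larger. Relative to the mean at the same distance this contact was at 1.52 in WT and 0.722 in Inv4. Its 100 kb windows across that domain held 1.53% to 4.90% each in WT and 0.234% to 0.512% in Inv4. These windows are parts of 1 library a side, and the Inv4 range too rests on the subtraction. In Inv3, which moves the same part over a shorter distance, the share was 7.73%.

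At the far end of the domain the share was also lower, and the remainder was above the mean for its distance. With the last 200 kb of the Epha4 domain the moved part had 3.88% ± 0.0358 of its contacts in WT and 0.805% ± 0.0740 in Inv4. Observed over expected was 4.71 in WT and 1.93 ± 0.177 in Inv4. With the stretch beyond the domain (77510 to 78500 kb) the moved part had 8.46% and 2.77%, or 3.75 and 1.98 times the mean. These long-range remainders were small in signal and depend on the size of the subtracted share: the value for the last 200 kb was 1.08% with a share 10% smaller, 0.478% with one 10% larger and 2.31% with the share added back.

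The moved part gained contact with the genes beyond the left breakpoint. With the 1000 kb on that side it had 1.54% ± 0.0260 of its contacts in WT and 21.05% ± 0.172 in Inv4, at 0.296 and 1.03 times the mean for the distance. With the WT share added back it was 11.48%. The nearest 100 kb held 0.213% in WT and 8.36% in Inv4, a 39.2-fold difference. The next windows went from 0.171% to 4.69%, from 0.141% to 2.89% and from 0.145% to 1.34%. At the tenth window (73790 to 73890 kb) the share was 0.151% in WT and 0.227% in Inv4. The gain in share therefore declined with distance and was small at the tenth window. In the nearest 3 windows observed over expected in Inv4 was 1.68, 1.41 and 1.12, and from the fourth to the tenth 0.643 or lower. By this measure Inv4 was above WT up to the eighth window. It was 0.402 ± 0.034 against 0.440 in WT at the ninth, and 0.251 ± 0.023 against 0.484 at the tenth.

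**Figure D3:**
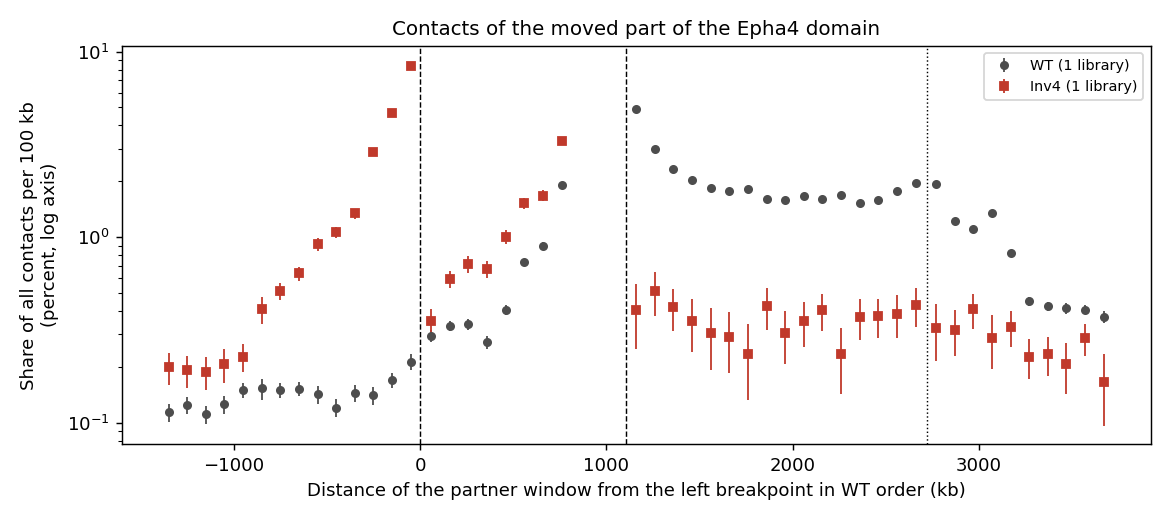
Share of all contacts of the moved part of the Epha4 domain with each 100 kb window, in percent on a log axis, against the window's distance from the left breakpoint in WT order, with WT in grey and Inv4 in red (1 library each, bars are 95% counting intervals). Dashed lines mark the breakpoints and the dotted line the end of the Epha4 domain. Inv4 lies above WT left of the breakpoint, reaching 8.36%, and below WT across the Epha4 domain.

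Within the segment the moved part kept its place beside the gene part, since both turned together. Its share with the gene part was 6.28% in WT and 11.4% ± 0.144 in Inv4, or 0.352 and 0.575 times the mean. The rise was unequal along the gene part. In the outermost window (74800 to 74900 kb) the share was 0.295% ± 0.0110 in WT and 0.355% ± 0.0289 in Inv4, and in the other windows it was 1.72 to 2.48 times WT. In Inv3 the outermost window held 5.39%. With itself the moved part had 45.2% of its contacts in WT and 50.5% in Inv4.

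Seen from the other side, the 200 kb left of the breakpoint (74590 to 74790 kb) met the moved part with 0.518% ± 0.0178 of their contacts in WT and 17.6% ± 0.177 in Inv4, a 33.98-fold difference. Observed over expected was 0.250 in WT and 1.57 in Inv4. Pooled over larger stretches, other shares of the same sequence changed less. With the gene part of the segment it had 14.9% in WT and 11.7% in Inv4, although the moved part now lay between them. The partners within the gene part changed, however. Its outer 200 kb (74800 to 75000 kb) met 74690 to 74790 kb with 5.37% of their contacts in WT and 0.440% in Inv4. With 74590 to 74690 kb they had 3.33% and 0.611%. For the 200 kb left of the breakpoint, the share with the sequence before it was 17.3% and 17.8%. With the remaining Epha4 domain it was 2.12% and 2.43%. In Inv3, whose left breakpoint lies further right, the share of these 200 kb with the moved part was 4.58%.

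The other end of the segment was joined to the Epha4 domain in place of the moved part. Its outer 200 kb (74800 to 75000 kb) had 3.03% ± 0.0387 of their contacts with the remaining Epha4 domain in WT and 24.5% ± 0.212 in Inv4, an 8.09-fold difference. Observed over expected was 0.484 in WT and 0.902 in Inv4, so that relative to distance the difference was 1.86-fold. With the WT share added back the share was 13.97%. With the 1000 kb beyond the left breakpoint, its WT neighbour, the share was 15.5% in WT and 3.52% ± 0.212 in Inv4. In Inv3 this sequence lies partly outside the segment, and its share with the Epha4 domain was 12.5%.

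Contact of this newly joined sequence was spread along the whole Epha4 domain. The 16 windows of 100 kb across the domain held 0.156% to 0.222% each in WT and 1.18% to 2.68% in Inv4, 6.67 to 12.3 times WT. Relative to the mean at each distance, contact was lowest next to the join, at 0.434, and highest in the last window of the domain, at 3.45. In the window just past the domain end (77510 to 77610 kb) it was 4.75, and the share there was 2.09%. In WT, where the same windows are farther away, observed over expected rose from 0.280 to 1.38 over the domain. With the last 200 kb of the domain the newly joined sequence had 0.412% ± 0.0141 of its contacts in WT and 3.37% ± 0.0766 in Inv4.

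**Figure D4:**
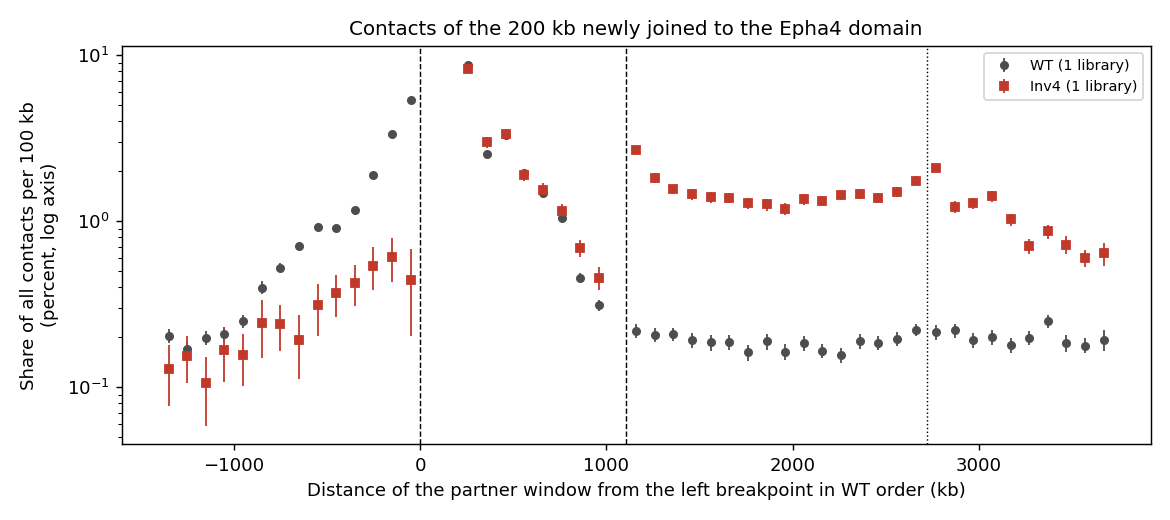
Share of all contacts of the outer 200 kb of the segment with each 100 kb window, in percent on a log axis, against the window's distance from the left breakpoint in WT order, with WT in grey and Inv4 in red (1 library each, bars are 95% counting intervals). Dashed lines mark the breakpoints and the dotted line the end of the Epha4 domain. Inv4 windows across the domain sit between 1.18% and 2.68%, above WT throughout, and windows within the segment lie at 0.942 to 1.51 times WT.

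Within the segment the newly joined sequence held its contacts. Its windows there were at 0.942 to 1.51 times WT. With the moved part, now at the opposite end of the segment as before, the share was 0.847% in WT and 1.35% in Inv4. It was 11.98% in Inv3, where the breakpoint brought part of this sequence next to the moved part.

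The remaining Epha4 domain itself was little altered. It had 76.9% of its contacts within itself in WT and 75.58% in Inv4, a difference below those seen away from the segment. Its share with the moved part was 5.53% in WT and 0.980% in Inv4, and with the gene part of the segment 3.20% and 5.46%. With the gene part, contact relative to the mean at the same distance was 0.686 in WT and 0.652 in Inv4. The last 200 kb of the domain, at its telomeric end, had 5.23% of their contacts with the moved part in WT and 1.09% in Inv4. With the gene part they had 3.50% and 5.996%, and with the rest of the domain 37.2% and 39.6%.

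Domain borders were read as minima of contact across a 200 kb square (insulation), with the depth of each minimum on the log2 scale. Outside the segment 15 of 17 WT borders had an Inv4 counterpart within 30 kb, and Inv4 had 18 borders there. Over the kept borders the median difference in depth, Inv4 minus WT, was -0.123 with an SD of 0.142, so kept borders were mostly shallower in Inv4. The border of the Epha4 domain next to the genes, at 75610 kb in WT with a depth of 1.48, lay at 75080 kb in Inv4 with a depth of 1.22, which is the same sequence turned. It now separated the moved part, joined to sequence from beyond the left breakpoint, from the gene part. The domain's other border, at 77510 kb, had a depth of 1.20 in WT and 0.95 in Inv4.

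A second deep border stood near the right breakpoint in Inv4, at 75870 kb with a depth of 1.22. The sequence there comes from 74820 kb in WT, where the nearest WT border lay at 74870 kb with a depth of 0.46. A border carried by the turned sequence and one formed at the junction of genes and Epha4 domain cannot be told apart. With the WT share added back to the map its depth was 1.95. That share was added in the order of the inverted chromosome, and sequences on either side of the right breakpoint there are far apart in WT. The added signal can thus deepen the minimum by itself, and this value does not bear on how the border formed. The shallow inner border at 75310 kb in WT (0.53) was found turned, at 75370 kb in Inv4 with a depth of 0.34. The 2 WT borders outside the segment without a counterpart lay at 75970 kb (0.22), within the Epha4 domain, and at 79760 kb (0.73). Inv4 borders without a WT border within 30 kb lay at 71690 kb (1.11), 74680 kb (0.55) and 78210 kb (0.27). The border at 71690 kb lies closer than the 200 kb square to a kept Inv4 border at 71600 kb (1.23). Likewise the WT border at 79760 kb lies close to a kept one at 79680 kb (0.77). Whether these neighbours are separate borders was not tested.

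**Figure D5:**
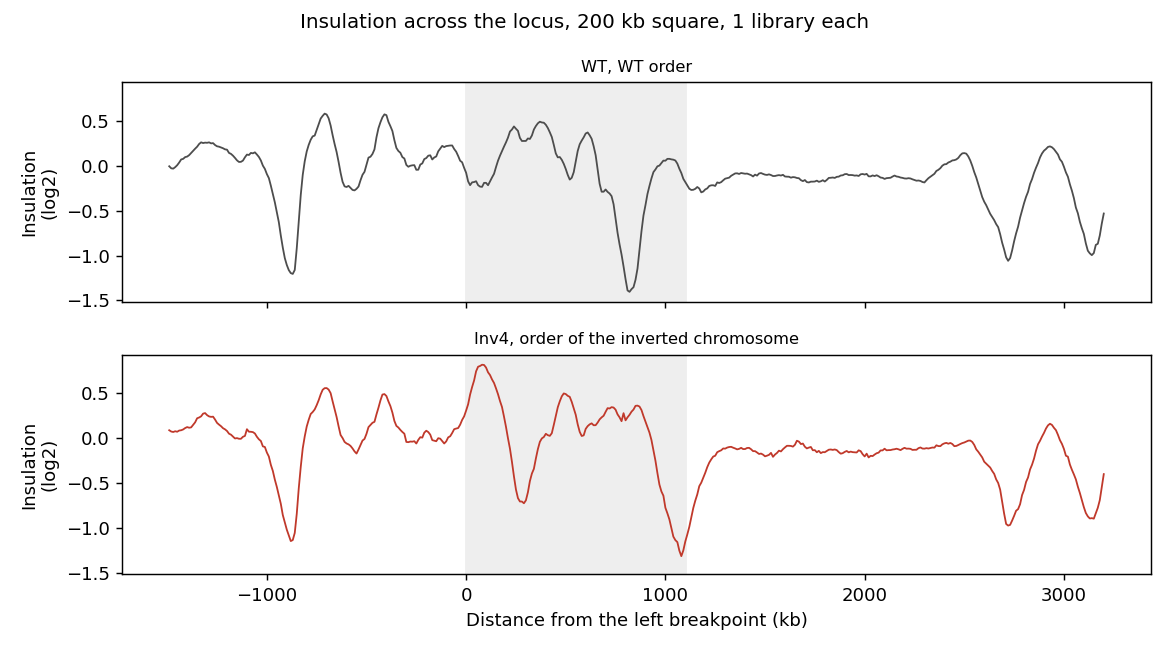
Insulation on the log2 scale (200 kb square, lower values are stronger borders) against distance from the left breakpoint in kb, with WT in its own order above and Inv4 in the order of the inverted chromosome below, and the segment shaded. The deep minimum at 75610 kb in WT lies at 75080 kb in Inv4, and a second minimum at 75870 kb stands next to the right breakpoint.

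The moved part carries the anchor of a stripe, at 75640 kb in WT. The stripe score compares the anchor's observed over expected contact, over 100 to 1500 kb on 1 side, with that of the bins beside it, as a log2 ratio. In WT it was 0.65 toward the Epha4 domain and -0.30 toward the genes. In Inv4 the same anchor scored 0.64 toward the sequence beyond the left breakpoint, a 1.56-fold excess, and -0.15 toward the rest of the segment and the Epha4 domain. Over 849 other bins the SD of the score difference between the libraries was 0.110 and 0.093 on these sides. The excess toward the genes was 1.64-fold at 100 to 300 kb, 2.09-fold at 310 to 600 kb, 1.17-fold at 610 to 1000 kb and 1.34-fold at 1010 to 1500 kb. For the last pair of ranges the log2 scores were 0.23 and 0.42, and the SD over other bins was 0.175 and 0.281. Against all bins at the same distance these scores were -0.21 and -1.18, so beyond 600 kb the sign depended on the bins compared with. The border beside the anchor turned with it, and the bins beside the anchor lie on both sides of that border, so the stripe and the border cannot be told apart by this score.

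Contacts inside the segment were carried along when it turned. Over 5158 bin pairs 50 to 2000 kb apart within the segment, observed over expected in Inv4 turned back to WT order correlated with WT at 0.568 (Pearson), and at 0.074 over 4964 pairs when not turned back. Over pairs before the segment the correlation was 0.406 and over pairs after it 0.246. The segment spans 1.11 Mb, so pairs within it cannot reach 2000 kb and lie closer together on average than pairs outside. The correlations inside and outside are therefore not like for like. The pairs share bins, and each map is 1 library, so these values are descriptions. The WT map was also the one subtracted from the Inv4 library.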

How the data were processed

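Capture Hi-C libraries of WT and Inv4 limb buds were compared, 1 library per group, grouped by their titles. Build mm9, Bowtie2 2.2.6 and Juicer were named per the submitters' processing notes, with no role given for each. The authors deposited maps of balanced signal per pair of 10 kb bins and, per gene, a scaled contact signal, scaled in a way not given in the sources used here. Both deposited Inv4 files, map and table, hold negative values and were treated as a score. In the map, of 84268 negative bin pairs, 87.0% lay within 1% of -0.334 times WT. Read pairs were recovered by fitting 1 factor per bin. In WT 100.0% of values under 20 were whole to within 0.1, and in Inv4 outside the segment, after adding WT back, 99.9%. Standard errors and 95% intervals come from these counts and cover counting error only, and those of Inv4 are approximate inside the segment, where its depth was not recovered.

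Shares are summed balanced signal per bin of a locus, as a percent of the median bin sum of the same map. That median stands in for all contacts of the locus. Bins with fewer listed pairs than 25% of the median bin and both breakpoint bins were left out, except that insulation kept the breakpoint bins. A border was a minimum at least 0.2 deep within 300 kb. The stripe anchor had 3 bins, its flanks were bins 3 to 8, and the best score within 20 kb was taken. All 103 gene symbols were in RefSeq (GRCm38.p6), 5 of them as synonyms, and 101 of 102 neighbouring pairs stood in its order. Of the genes, 30 share all values with another. Genes named were Epha4, fixed lists of limb signals, breakpoint neighbours, segment genes and Epha4 and Pax3 domain genes, the 8 largest ratios and the 3 highest levels per library. Other genes named were added after their values were seen. Members and lists were chosen with earlier results of these data known. Pseudocounts of 0.05 and 5, centring, a 3-fold call, other squares, a subtracted share 10% smaller or larger and the share added back were tried. Python 3.11.15, numpy 2.4.6, scipy 1.17.1 and matplotlib 3.10.9 were used. Recovery of the subtracted share, the frame, the read pairs and a contact sum was tested on simulated data. There the subtracted share equalled the WT part of the library, so whether it does so for Inv4 was not tested.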

Additional observations from a re-analysis of the deposited data

How the results depend on the processing

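No paired analysis was possible because each group has 1 library. Gene ratios depended on pseudocount and scale. The log2 ratio of Epha4 was -2.22, -1.02 with a pseudocount of 5 and -3.31 centred on the median gene. The 54 genes above WT became 11 with a pseudocount of 5, 24 after centring and 33 at 3-fold, and the 7 below became 15 with a pseudocount of 0.05, 2 with 5 and 25 after centring. Centred on the median gene, log2 ratios turned to -0.70 for Slc11a1, -0.87 for Wnt6, -1.004 for Wnt10a, -0.072 for Ihh, -0.15 for Des, -1.08 for Obsl1 and -0.29 for Slc4a3, and centred on the far genes to -0.085 for Wnt10a and -0.16 for Obsl1.

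With the WT share added back, the new left join was 25.1 times WT, the moved part had 19.1% of its contacts with the Epha4 domain, the newly joined sequence 13.97%, the stripe score on the other side was 0.21 and the correlation within the segment 0.81. With the subtracted share 10% smaller and 10% larger the moved part was at 8.22% and 2.96% and the newly joined sequence at 22.6% and 26.8%. With the larger share the former joins fell to -0.062 (left) and -0.043 (right) times WT. The new left join was 31.2 with 200 kb squares. Breakpoints moved inward by 20 kb gave 22.9% for the newly joined sequence. The turned Epha4 border had a depth of 0.94 with a 300 kb square. The stripe score was 0.37 against all bins at the same distance and 0.88 over 100 to 600 kb. The correlation within the segment was 0.15 for pairs 500 to 2000 kb apart. Of all values recomputed, 58 moved by less than their counting interval or stayed within 1.5 times, 109 moved further and 12 changed sign. The cause was not tested. The long-range remainders of the moved part ranged with the subtracted share, from 0.478% to 2.31% with the last 200 kb of the Epha4 domain.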

Other observations

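Contacts of the segment with stretches further away also differed between the libraries. The gene part of the segment had 3.16% ± 0.0216 of its contacts with the stretch beyond the Epha4 domain (77510 to 78500 kb) in WT and 5.24% ± 0.0649 in Inv4, at 2.21 and 2.41 times the mean for the distance. With the telomeric flank it had 1.86% and 2.47%. The moved part had 1.94% ± 0.0278 of its contacts with the centromeric flank in WT and 3.61% ± 0.0859 in Inv4, at 0.689 and 0.558 times the mean for the distance. For the stretch beyond the Epha4 domain, the share of contacts within itself fell by 6.54 percentage points between the libraries, more than any of these differences in share.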
